A study of Loxodonta africana with 12 samples.

Results

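Genes for the spliceosome and for heterogeneous nuclear ribonucleoproteins (hnRNPs) were followed in blood of the African elephant (Loxodonta africana). They were picked by a rule on names, chosen with earlier results of these data known. By this rule 72 of the 16406 rows carried a symbol that starts with SRSF (9 genes), HNRNP (15), U2AF (2), SF3A or SF3B (8), SNRP (12) or PRPF (13), or with LSM and a digit (13). All 72 are marked protein coding, and all 72 passed the filter on low counts in each comparison. SRSF2, SRSF3, HNRNPA1 and SF3A1 were not analysed here. The samples were untreated blood and blood given 2 Gy of ionizing radiation, each at 5 h and at 24 h, with 3 libraries in each of the 4 groups. All were total RNA libraries depleted of ribosomal RNA. The labels give no breed, age or genotype, and do not say whether the 3 libraries of a group came from separate animals, so p-values reflect only the scatter of these libraries, which may be technical. The study asked which genes irradiation changes.

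Splicing removes introns from the primary transcript and joins the exons. The spliceosome assembles anew on each intron from small nuclear ribonucleoproteins (snRNPs), in which a ring of Sm or LSm proteins sits on a small nuclear RNA, together with many further proteins. SR proteins mostly promote the use of an exon and many hnRNPs mostly repress it, so the balance between the families shapes which isoforms a blood cell makes.

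The 6 libraries at 5 h held between 31059389 and 38138163 counts each. At 24 h the untreated libraries held 22924260 to 37356501 counts and the irradiated ones 18022475 to 23805619. PTPRC, the common leukocyte antigen, lay between 3809 and 5809 CPM (read counts scaled to a common library size over all 12 libraries) in every library. MDM2, a p53 target that checks the irradiation labels, stood at 188 CPM untreated against 1185 irradiated at 5 h, and at 125 against 805 at 24 h. In edgeR's quasi-likelihood test at a Benjamini-Hochberg adjusted p of 0.05, irradiation changed 1.6% of 12969 genes at 5 h and 6.73% of 14373 at 24 h. Of the 72 spliceosome and hnRNP genes, 0 passed that threshold at either time. The same test called 58 of them lower and 3 higher at 24 h than at 5 h in untreated blood, where 30.5% of 13445 genes were lower and 32.6% higher.

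The members were abundant. Their median level over the 12 libraries was 64.7 CPM, at percentile 76.7 of all genes tested, whose median was 14.3 CPM, and 59 of the 72 reached a mean of 20 CPM. Together they took 1.28 ± 0.023% of all counts in untreated libraries at 5 h and 1.30 ± 0.038% in irradiated ones (SD, n = 3). At 24 h their share was 1.08 ± 0.057% untreated and 1.01 ± 0.041% irradiated.

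Per kb of exon, HNRNPK was the highest of the 72. HNRNPK, which binds C-rich RNA through KH domains, stood at 717 CPM per kb over the 12 libraries. It was followed by the SR proteins SRSF6 with 513 and SRSF5 with 481 CPM per kb, and by HNRNPF, a binder of G-rich RNA, with 427. HNRNPAB at 325, HNRNPA2B1 at 318, SRSF7 at 317 and SRSF1 at 305 CPM per kb came next. High members of other families were SF3B1, the branch point clamp of the U2 snRNP, at 282, SF3B6 at 237, the cytoplasmic RNA granule protein LSM14A at 177, the Sm protein SNRPE at 169 and U2AF2 at 160 CPM per kb. The deposited exon length is a multiple of 3 for 80.6% of the members, so for many of them it may be coding length only.

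The low end held SNRPN at 0.993, the U7 snRNP protein LSM11 at 1.202, SRSF12 at 1.93 and PRPF40B at 2.25 CPM per kb. Other low members of their families were SF3A2 at 11.8, HNRNPA3 at 50.2 and U2AF1 at 70.0 CPM per kb. SNRPN encodes an Sm protein nearly identical to that of SNRPB, and reads may be split between them, so its level is uncertain. Values also varied little between replicates. The median coefficient of variation of the members was 6.04% in untreated and 6.45% in irradiated libraries at 5 h, and 8.5% and 9.03% at 24 h. Genes of at least 20 CPM gave 7.51%, 6.63%, 9.69% and 10.6% in the same groups.

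**Figure D1:**
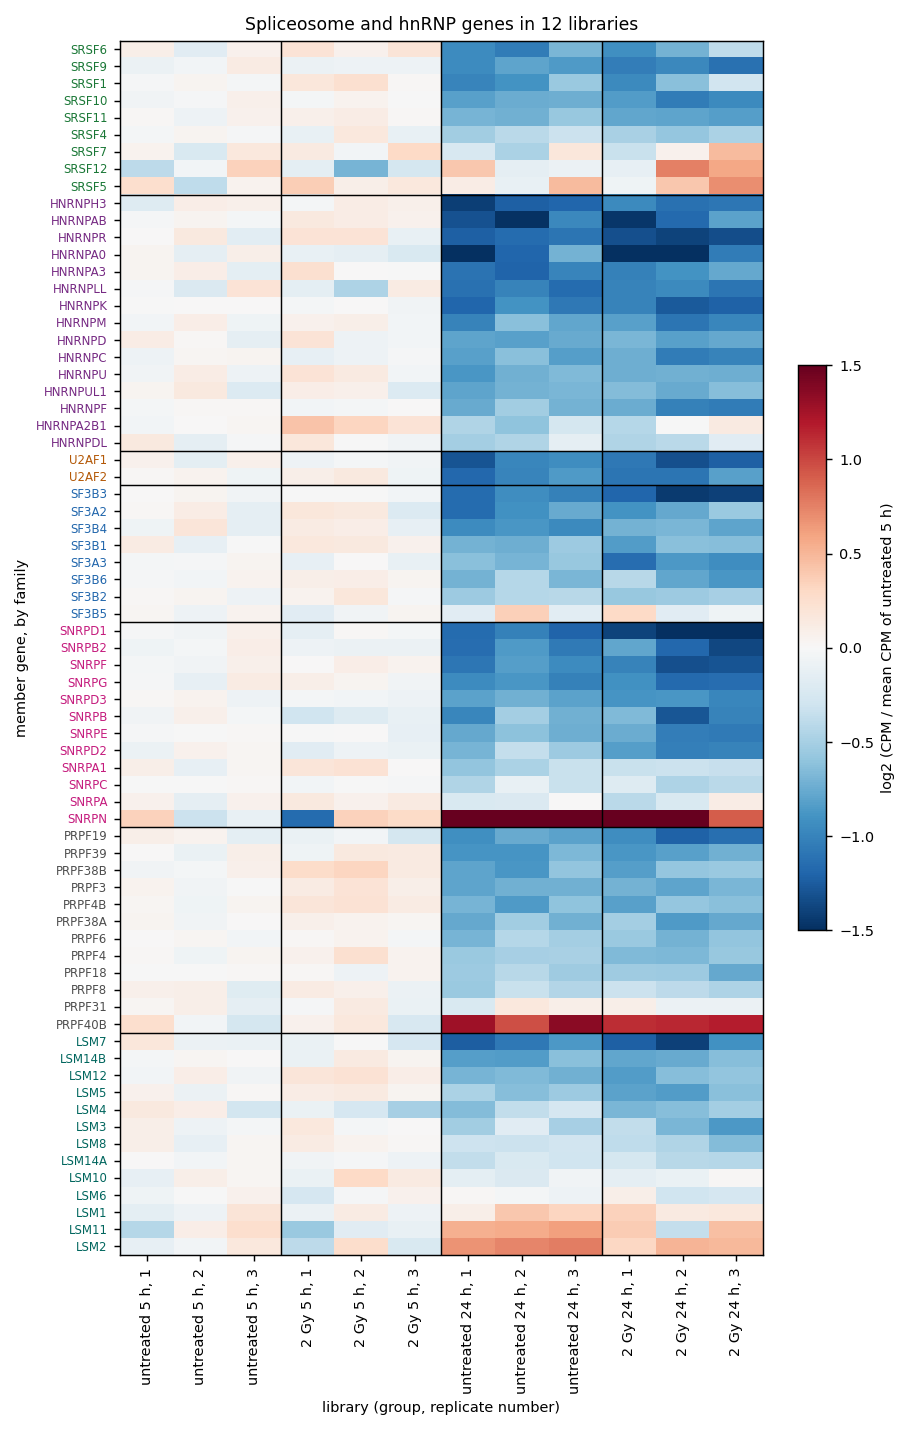
Each row is 1 of 71 member genes, grouped by family, and each column 1 of the 12 libraries; colour is the log2 ratio of the CPM to the mean of the untreated 5 h libraries, with colours ending at 1.5 in each direction. Most rows turn blue in all 6 libraries at 24 h, SNRPN, PRPF40B and LSM2 turn red there, and the irradiated columns at 5 h stay mostly pale.

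The comparison of untreated libraries at 24 h with those at 5 h addressed how the genes differed between times without irradiation. In edgeR 58 of the 72 were lower, 3 were higher and 11 did not pass, where 63.1% of 13445 genes were called, 30.5% lower and 32.6% higher. Among the 6755 genes of at least 20 CPM, 48.6% were lower. The median log2 fold change of the members was -0.66, beside 0.11 for all genes tested and -0.26 for those of at least 20 CPM, and 65 of the 72 lay below the median of all genes. In 57 members every library at 24 h lay below every library at 5 h, and in 4 members above, where 33.7% and 34.9% of all genes did so.

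How far they fell depends on the scaling. TMM factors were 0.849 to 0.887 at 5 h and 1.09 to 1.29 at 24 h, while the 100 most abundant genes took 18.2% to 19.0% of the counts at 5 h and 14.9% to 17.6% at 24 h. With library totals alone, the log2 fold change of the median gene rose by 0.42 to 0.52, and 35 members were called lower and 10 higher, against 16.6% and 52.5% of all genes. The 35 were all among the 58, the 3 higher members stayed higher, and 0 members turned from lower to higher. The members' median less that of all genes was -0.77 with either scaling. Library totals moved all genes upward by nearly the same amount, so this difference could hardly change. For the same reason the 35 could hardly lie outside the 58, and the 3 higher members could hardly be lost. These points therefore do not test whether the fall depends on scaling.

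Blood holds several cell types, and in bulk RNA fewer cells of a type and less RNA per cell cannot be told apart. Of 13 neutrophil markers tested, 9 were lower at 24 h in the untreated libraries, and the 14 listed summed to 2755 to 3225 CPM at 5 h and 475 to 691 CPM at 24 h. Of the others, 10 of 17 T cell, 6 of 9 NK cell, 5 of 14 B cell and 6 of 10 monocyte markers were higher. Lower were 1 monocyte and 2 of 8 platelet markers, and of 5 erythroid markers 0 were called. No listed marker was at 0 in a whole group. Proliferation genes were higher in 9 and lower in 1 of 21. The part of these shifts in the members' values was not tested, and time cannot be told apart from any step handled separately at each time.

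All 15 hnRNP genes fell from 5 h to 24 h, and with library totals alone 11 were still called lower while HNRNPA2B1 and HNRNPDL had small positive values of 0.03 and 0.10. The call of HNRNPDL rested on single libraries: leaving out replicate 1 or 3 at 5 h, or replicate 1 or 2 at 24 h, gave edgeR adjusted p-values of 0.121, 0.0613, 0.106 and 0.0621. HNRNPK (scaffold 6, 7953378 to 7962136, plus strand) was measured at 1392, 1402 and 1403 CPM in untreated libraries at 5 h, and at 614, 749 and 666 CPM at 24 h. The values at 5 h lay close together and far above the highest at 24 h, and the level fell by 50.3% (log2 fold change -1.01 ± 0.10 SE, edgeR adjusted p = 6.14e-05). HNRNPH3, a relative of HNRNPF, fell the most, from 142, 173 and 171 CPM to 61.0, 69.1 and 71.1 CPM (-1.23 ± 0.10, edgeR adjusted p = 2.46e-05).

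Other falls of the family passed 1 on the log2 scale. These were HNRNPAB (-1.19), HNRNPR (-1.12), HNRNPA0 (-1.09), HNRNPA3 (-1.05) and HNRNPLL (-1.05), the last a regulator of the isoforms of PTPRC in lymphocytes. HNRNPU, a scaffold protein of the nuclear matrix, fell by 0.71 and HNRNPC, which binds uridine tracts, fell by 0.71. HNRNPDL changed least (-0.32, edgeR adjusted p = 0.0425). Its neighbour HNRNPD, 79.7 kb away on the same strand of scaffold 30 and known for binding AU-rich messages, had -0.74.

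SR protein genes divided. SRSF6, SRSF9, SRSF1, SRSF10, SRSF11 and SRSF4 fell, by 0.84, 0.82, 0.76, 0.72, 0.62 and 0.37 on the log2 scale; with library totals alone SRSF4 stood at 0.04, and SRSF11 (-0.20) was no longer called. SRSF6 (scaffold 19, 42869460 to 42870766, plus strand) gave 521, 436 and 512 CPM at 5 h and 254, 236 and 305 CPM at 24 h, groups that stay well apart. SRSF5, SRSF7 and SRSF12 did not pass. SRSF5 gave 406, 264 and 356 CPM at 5 h and 370.5, 318 and 475 CPM at 24 h, so its groups overlap (0.22, 95% interval -0.20 to 0.64), and library totals alone called it higher (0.65). SRSF7, also an adaptor for messenger RNA export, gave 297, 246 and 319 CPM and then 243, 207 and 324 CPM (-0.11, interval -0.49 to 0.26), and with library totals alone it stood at 0.31.

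U2AF and SF3 proteins mark the 3′ end of the intron. U2AF2 binds the polypyrimidine tract and U2AF1 the adjoining AG, and both fell at 24 h under both scalings. U2AF2 (scaffold 4, 16889150 to 16908165, plus strand) went from 306, 314 and 290.1 CPM to 135, 153 and 168 CPM (-0.96 ± 0.10, edgeR adjusted p = 6.01e-05). U2AF1 (scaffold 67, 9904043 to 9917419, minus strand) went from 73.7, 63.2 and 73.8 CPM to 28.6, 35.6 and 36.8 CPM (-1.02 ± 0.10, edgeR adjusted p = 6.45e-05). Neither pair of groups overlapped.

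Of the 8 SF3 genes, whose products hold the U2 snRNP at the branch point, 7 fell. With library totals alone 3 were called lower and 1 higher. SF3B3 (-0.99), SF3A2 (-0.89) and SF3B4 (-0.88) fell under both scalings. SF3B1 (scaffold 3, 29740547 to 29776293, plus strand) gave 1442, 1223 and 1322 CPM at 5 h and 812, 803 and 913 CPM at 24 h. Its lowest value at 5 h exceeded the highest at 24 h, and it fell by 34.8% (-0.62 ± 0.11, edgeR adjusted p = 0.00109), which library totals alone put at -0.20 with an adjusted p of 0.131. SF3B5, a small subunit of the complex, did not pass (0.07, interval -0.25 to 0.38); library totals alone called it higher (0.48), and without replicate 2 at 24 h it stood at -0.17.

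Among the 12 SNRP genes 10 fell and SNRPN rose. With library totals alone 7 were called lower and 2 higher. SNRPD1 (scaffold 4, 80635632 to 80643381, minus strand), a protein of the Sm ring, fell from 81.6, 79.5 and 87.2 CPM to 37.3, 40.8 and 36.0 CPM (-1.08 ± 0.09, edgeR adjusted p = 1.81e-05). The other Sm proteins fell by less: SNRPF by 0.91, SNRPG by 0.90, SNRPD3 by 0.74, SNRPB by 0.69, SNRPE by 0.66 and SNRPD2 by 0.49. SNRPB2 of the U2 snRNP fell by 0.97 while its partner SNRPA1 fell by 0.42 and SNRPC of the U1 snRNP by 0.25. The call of SNRPC was lost without any 1 of the libraries other than replicate 2 at 24 h (edgeR adjusted p = 0.0675 to 0.118), and library totals alone put it at 0.16. SNRPA, also of the U1 snRNP, did not pass (-0.10, interval -0.34 to 0.14), and with library totals alone it was called higher (0.32).

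SNRPN (scaffold 93, 5116014 to 5119440, plus strand) moved the other way from its near copy SNRPB. It gave 0.448, 0.282 and 0.325 CPM at 5 h and 1.25, 1.47 and 1.0 CPM at 24 h (1.86 ± 0.35, edgeR adjusted p = 0.00188). All 3 libraries at 24 h were above all 3 at 5 h, at levels under a few CPM. SNRPB gave 91.4, 100.2 and 93.1 CPM and then 48.3, 66.4 and 57.8 CPM.

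PRPF genes encode factors first known from yeast splicing mutants, and 11 of the 13 fell. With library totals alone 6 were called lower and 2 higher. PRPF19, a ubiquitin ligase needed for activation of the spliceosome, fell by 0.78. PRPF39 fell by 0.77, PRPF38B by 0.71 and the tri-snRNP protein PRPF3 by 0.70. PRPF8 (scaffold 47, 4854824 to 4884455, minus strand), the scaffold of the catalytic centre, gave 879, 889 and 735 CPM at 5 h and 565, 664 and 613 CPM at 24 h. These groups did not overlap (-0.40 ± 0.11, edgeR adjusted p = 0.0139), yet the library totals alone gave 0.01.

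PRPF40B rose. Its levels were 4.36, 3.54 and 3.05 CPM at 5 h and 8.79, 7.16 and 9.33 CPM at 24 h (1.25 ± 0.18, edgeR adjusted p = 0.000445), and library totals alone also called it higher. PRPF31, a tri-snRNP protein, did not pass (0.06, interval -0.20 to 0.31), and library totals alone called it higher (0.47).

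The LSM genes moved least as a family, with a median log2 fold change of -0.26, 7 lower, 1 higher and 5 not called; library totals alone gave 2 lower and 4 higher. LSM2 to LSM8 form the ring on U6 RNA, and with LSM1 in place of LSM8 the ring acts in messenger RNA decay. LSM7 (scaffold 132, 580216 to 586156, plus strand) fell from 28.3, 23.8 and 23.7 CPM to 10.7, 11.99 and 13.9 CPM (-1.01 ± 0.12, edgeR adjusted p = 0.000142). LSM2 (scaffold 138, 1331421 to 1335902, plus strand) rose from 9.81, 10.4 and 11.9 CPM to 17.1, 17.7 and 18.2 CPM (0.77 ± 0.11, edgeR adjusted p = 0.000388). Both had groups well apart, so the RNAs for 2 proteins of 1 ring moved in opposite directions. LSM6 (0.02, interval -0.23 to 0.26), LSM8 (-0.26, adjusted p = 0.0509), LSM1 (0.32), LSM10 (-0.09) and LSM11 (0.60, adjusted p = 0.0706) did not pass in edgeR; LSM8 passed without replicate 2 at 5 h (0.0441) and LSM1 without replicate 3 at 5 h (0.0429). Of the called members LSM3 (-0.34), LSM4 (-0.37) and LSM14A (-0.26) were positive with library totals alone, at 0.07, 0.04 and 0.16. Their calls were also lost without single libraries: LSM3 without replicate 1 at 5 h or replicate 1 or 3 at 24 h (edgeR adjusted p = 0.0569 to 0.0759), LSM4 without replicate 1 or 2 at either time (0.0557 to 0.129) and LSM14A without replicate 1 at 24 h (0.0663).

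**Figure D2:**
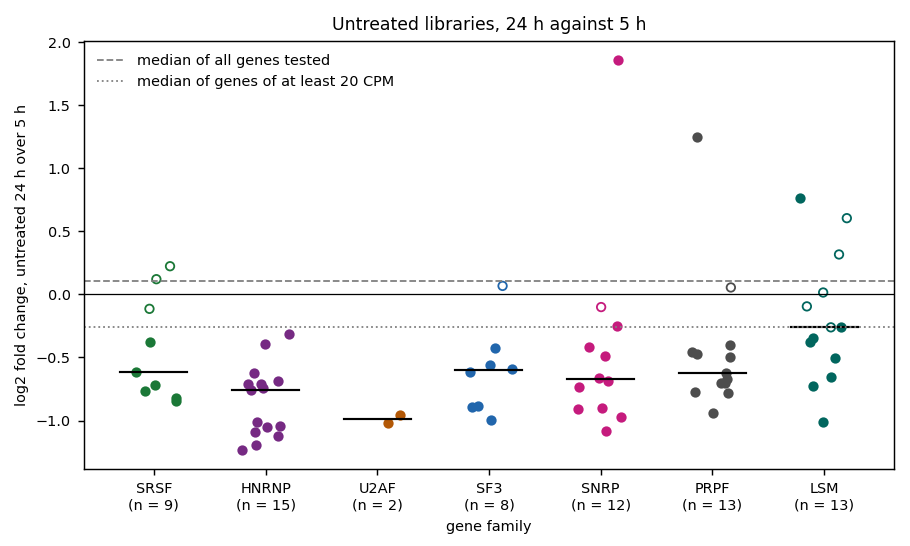
Each point is 1 member gene, by family on the x axis, with its log2 fold change of untreated 24 h over 5 h on the y axis; filled points passed the adjusted p of 0.05, bars are family medians, and the dashed and dotted lines are the medians of all genes (0.11) and of genes of at least 20 CPM (-0.26). All 15 HNRNP points are filled and below 0, and SNRPN (1.86), PRPF40B (1.25) and LSM2 (0.77) are the filled points above 0.

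The comparison of irradiated with untreated libraries at 5 h asked what had changed soon after irradiation. edgeR without a block called 0 of the 72 members, against 1.6% of all genes; at an unadjusted p below 0.05 it gave 3 higher and 1 lower, or 5.56% of members against 12.9% of genes, and DESeq2 called 1 member and 3.42% of genes. Their median log2 fold change was 0.02 and that of all genes -0.0015, with 39 members positive and 33 negative. The 95% interval lay within 1.5-fold in either direction for 68 of the 72, so larger changes were outside it for those. In 7 members every irradiated library was above every untreated one, and in 2 below, against 10.2% and 8.43% of all genes.

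HNRNPA2B1 (scaffold 5, 32276509 to 32284243, plus strand), an hnRNP that also sorts RNA for transport, had the smallest p at 5 h. It gave 402, 418 and 423 CPM untreated and 555, 516 and 479 CPM irradiated, 3 libraries above 3. The log2 fold change was 0.31 ± 0.07 with an adjusted p of 0.122 in edgeR and 0.0168 in DESeq2. PRPF38B, a protein of the precatalytic spliceosome, gave 103, 105 and 112 CPM and then 129.7, 133 and 117 CPM (0.23 ± 0.07, edgeR adjusted p = 0.229). SNRPB was the lower one, with 91.4, 100.2 and 93.1 CPM untreated and 76.9, 82.7 and 87.7 CPM irradiated (-0.22 ± 0.08, edgeR adjusted p = 0.291). In these 3 genes the groups did not overlap.

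Libraries with the same number deviated together at 5 h, with correlations of 0.68, 0.70 and 0.83, so the replicate number was also fitted as a block. No pairing is stated for these libraries, so the block rests on the correlations alone. With the block 13 members passed, 8 higher and 5 lower, or 18.1% against 20.5% of all genes (10.6% higher, 9.92% lower). The share of the members was thus near that of all genes. Within the 3 pairs, 22 members were higher in every pair and 10 lower, together 44.4% against 51.6% of genes. Leaving out 1 pair left 4 to 8 higher and 3 to 6 lower.

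Of the 8 higher members with the block, 4 were SR protein genes, and without the block 0 of the 9 SR protein genes passed. SRSF5 was higher by 0.13, 0.46 and 0.10 on the log2 scale in the 3 pairs (blocked log2 fold change 0.22, edgeR adjusted p = 0.00911), although its groups overlapped, and without the block its adjusted p was 0.649. SRSF6 gave 0.12, 0.24 and 0.13 (0.15, edgeR adjusted p = 0.0128), SRSF7 gave 0.08, 0.19 and 0.15 (0.13), and SRSF1, the prototype of the family, gave 0.19, 0.19 and 0.04 (0.13). All 4 lay below a rise of 1.5-fold in each pair. HNRNPA2B1 was the highest of the 8, with 0.47, 0.31 and 0.18 (0.30, edgeR adjusted p = 0.000249), and PRPF38B, PRPF4B, a kinase of splicing factors, and PRPF3 were the others (0.23, 0.17 and 0.13).

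The 5 lower members with the block were LSM4, SNRPB, HNRNPA0, HNRNPLL and PRPF19. LSM4, of both LSm rings, gave -0.24, -0.35 and -0.22 in the 3 pairs (blocked log2 fold change -0.28, edgeR adjusted p = 0.00920). SNRPB gave -0.25, -0.28 and -0.09 (-0.22, edgeR adjusted p = 0.00662). HNRNPA0, which binds AU-rich RNA, gave -0.15, 0.0014 and -0.32 (-0.17), so 1 pair held no difference. HNRNPLL (-0.16) and PRPF19 (-0.14) were lower in all 3 pairs. With the block, 11 of 14 B cell, 9 of 17 T cell and 7 of 9 NK cell markers tested were also lower at 5 h. Monocyte markers were 4 higher and 3 lower of 10, and neutrophil markers 3 and 3 of 13. Of 8 platelet markers 1 was higher, and of 5 erythroid markers 0 were called. The summed B cell markers stood at 568 to 764 CPM untreated and 380 to 618 CPM irradiated. The part of the markers in the members' values was not tested.

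**Figure D3:**
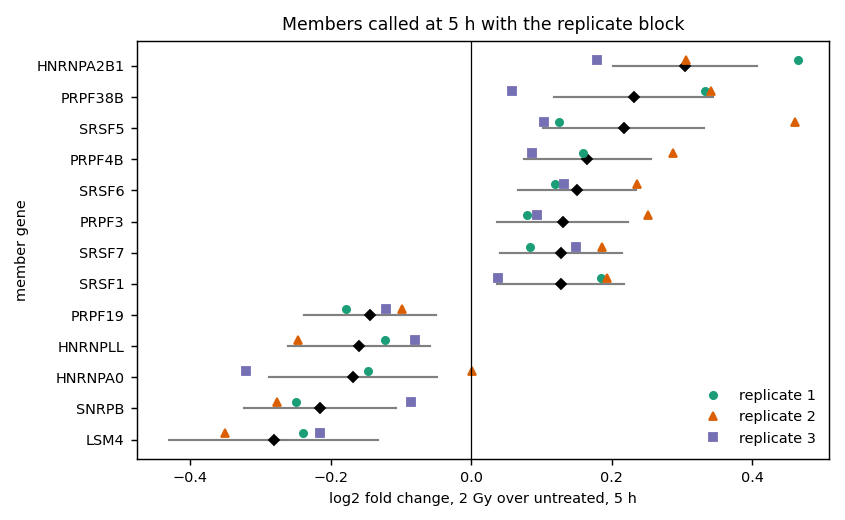
The x axis is the log2 fold change of 2 Gy over untreated at 5 h for the 13 members called with the replicate block; coloured points are the 3 pairs of libraries with the same number, and diamonds with lines are the blocked estimate and its 95% interval. The estimates run from -0.28 for LSM4 to 0.30 for HNRNPA2B1, and only HNRNPA0 has a pair at 0.0014, on the other side of 0.

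At 24 h the comparison of irradiated with untreated libraries addressed the later response. edgeR called 0 of the 72 members, where 1.8% of all genes were higher and 4.94% lower. At an unadjusted p below 0.05 it gave 0 higher and 7 lower, or 9.72% of members against 21.5% of genes, and DESeq2 called 3 lower and 12.2% of genes. The members' median was -0.08 against 0.01 for all genes, with 25 positive and 47 negative, and 58 intervals lay within 1.5-fold in either direction. In 14 members every irradiated library was below every untreated one and in 2 above, against 16.8% and 9.42% of all genes.

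The smallest p-values belonged to Sm and SF3 genes. SNRPD1 gave 37.3, 40.8 and 36.0 CPM untreated and 31.7, 26.3 and 27.4 CPM irradiated (-0.43 ± 0.10, adjusted p = 0.0553 in edgeR and 0.0237 in DESeq2). SNRPD2, its neighbour in the Sm ring, gave 39.3, 49.9 and 43.6 CPM and then 36.0, 31.5 and 32.0 CPM (-0.42 ± 0.11, adjusted p = 0.0644 and 0.0297). In both genes the highest irradiated library was under the lowest untreated one. Without replicate 1 of the irradiated group edgeR called both (adjusted p = 0.0264 and 0.0490), and with library totals alone it did as well (0.0243 and 0.0195), a scaling that called 7.27% of all genes lower.

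SF3A3, a subunit of the U2 snRNP, gave 114, 108 and 118 CPM untreated and 79.6, 96.3 and 91.8 CPM irradiated, with no overlap. Its log2 fold change was -0.35 ± 0.10, with an adjusted p of 0.0963 in edgeR and 0.0426 in DESeq2. SF3B3 gave 206, 241 and 228 CPM and then 202, 170.2 and 175 CPM (-0.31 ± 0.10), adjusted p = 0.136 in edgeR and 0.0396 with library totals alone. The next were LSM2 (-0.30), PRPF19 (-0.27), HNRNPR (-0.20) and HNRNPH3 (0.22), with edgeR adjusted p-values of 0.140, 0.162, 0.200 and 0.235.

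By family, 11 of the 12 SNRP genes and 11 of the 13 LSM genes had negative values at 24 h, with medians of -0.19 and -0.12. In each of these families 11 genes also lay below the median of all genes (0.01), and 0 were called. Negative values were also held by 8 of 13 PRPF, 5 of 8 SF3, 2 of 2 U2AF and 6 of 15 HNRNP genes. The SR protein genes had a median of 0.19, with 5 of 9 positive. SRSF1 gave 137, 146 and 186 CPM untreated and 141, 176 and 224 CPM irradiated, SRSF6 254, 236 and 305 against 259.8, 301 and 376 CPM, and SRSF7 243, 207 and 324 against 228, 299 and 399.8 CPM. In each of the 3 genes the groups overlapped, with the first and second irradiated libraries within the range of the untreated ones and the third above it. The replicate numbers did not pair the libraries at 24 h (correlations of -0.17, -0.61 and 0.86), and no pairing is stated. A block on the numbers gave 0 calls among the members and 4.92% of genes. Some libraries with unlike numbers deviated together there, irradiated 1 with untreated 2 (0.85) and irradiated 2 with untreated 1 (0.56). Other unlike-numbered correlations ran from -0.83 to 0.32. Whether libraries were paired in such a way is not known, and no such pairing was tested. The test without a block takes no account of it, and the block on the numbers does not match it.

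By median log2 fold change, each cell type marker list moved more than the members (-0.08) at 24 h, though many single markers were not called. Of 13 B cell markers tested 11 were lower after irradiation, of 9 NK cell markers 6 and of 17 T cell markers 4. Higher were 3 of 10 monocyte markers (1 was lower), 3 of 9 platelet markers and 2 of 14 neutrophil markers. Of 5 erythroid markers 0 were called. Summed B cell markers stood at 829.8 to 1356 CPM untreated and 272 to 699.9 CPM irradiated, with 0 listed genes at 0 in a whole group. Summed monocyte markers stood at 3511 to 4224 CPM untreated and 6234 to 7204 CPM irradiated, and summed neutrophil markers at 475 to 691 and 963 to 1084 CPM. Summed platelet markers stood at 52.6 to 66.8 and 109.55 to 137 CPM, so none of these 3 sums overlapped between the groups. Their part in the members' values was not tested.

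**Figure D4:**
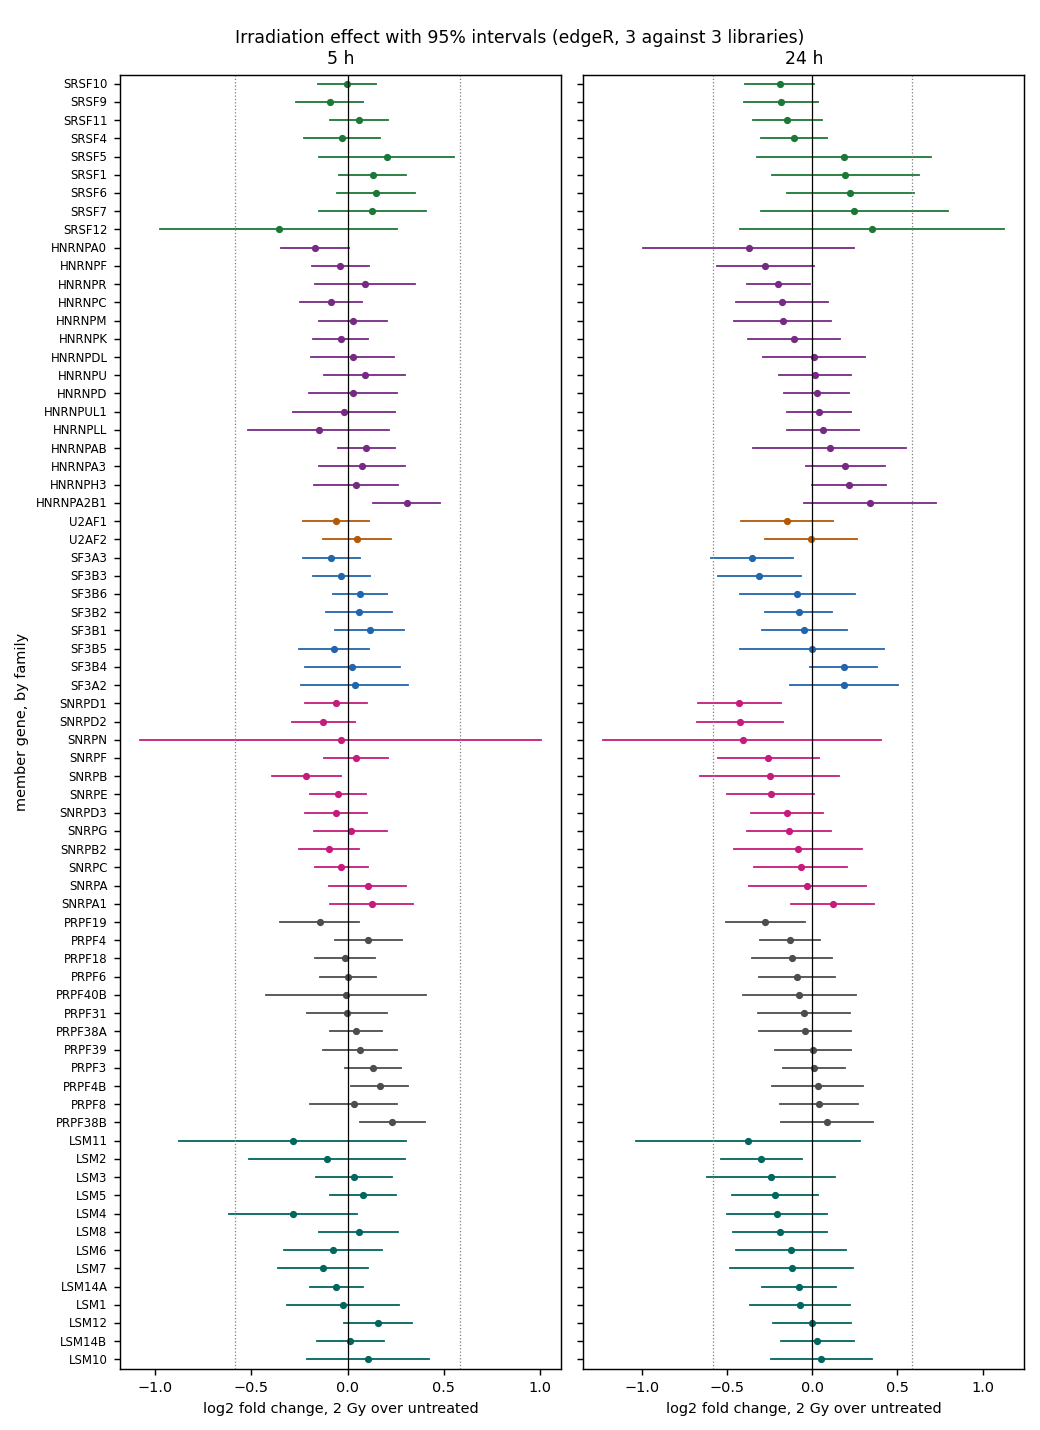
Points are log2 fold changes of 2 Gy over untreated with 95% intervals from edgeR (3 against 3 libraries), at 5 h on the left and 24 h on the right, for 71 members by family; dotted lines mark 1.5-fold in either direction. Most intervals cross 0 and stay inside the dotted lines, while SNRPN, SRSF12 and LSM11, at low counts, have wide ones.

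The sign of the irradiation effect was the same at both times in 50 of the 72 members, 21 positive and 29 negative. That is 69.4%, beside 68.1% of the 12814 genes tested at both times. Of the 13 members called with the block at 5 h, 12 had the same sign at 24 h, or 92.3%, beside 83.9% of the 2649 genes called the same way and tested at 24 h. Some were near 0 there, such as PRPF3 (0.0095) and PRPF4B (0.03). HNRNPA2B1 had 0.34 at 24 h (interval -0.05 to 0.73), with 303, 272 and 346 CPM untreated and 308, 413 and 454 CPM irradiated, so its groups overlapped there.

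Whether irradiation acted differently at the 2 times was tested as an interaction over the 12 libraries. edgeR called 0 members, against 0.882% of 15200 genes; 0 were higher and 5 lower at an unadjusted p below 0.05, which 9.95% of genes reached, and DESeq2 called 0 members and 3.03% of genes. The smallest p-value was that of SNRPD1, whose effect at 24 h less that at 5 h was -0.37 ± 0.13 (edgeR adjusted p = 0.299). LSM5 (-0.30), SF3A3 (-0.27), SF3B3 (-0.28) and SNRPD2 (-0.30) followed. The median over members was -0.09, beside -0.01 for all genes, and 54 of the 72 were negative.

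**Figure D5:**
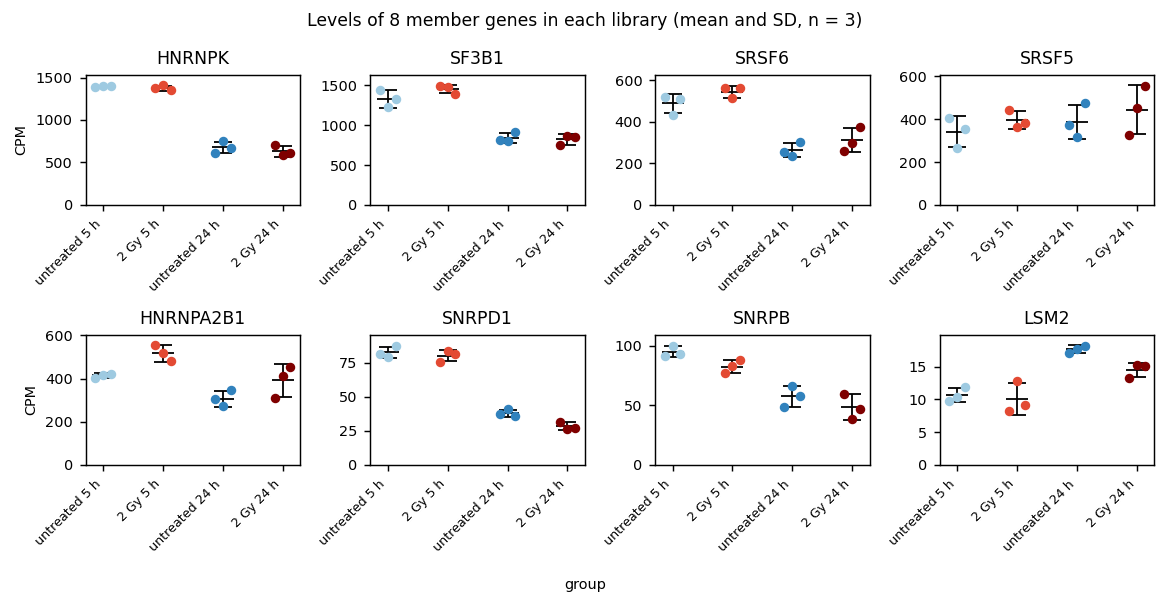
Each panel plots the CPM of 1 gene on the y axis in the 4 groups on the x axis; points are the libraries in the order of their numbers, and bars are the mean and SD (n = 3). HNRNPK, SF3B1, SRSF6, SNRPD1 and SNRPB stand lower in the 6 libraries at 24 h and LSM2 higher, SRSF5 overlaps across all groups, and SNRPD1 stands at 26.3 to 31.7 CPM after irradiation at 24 h against 36.0 to 40.8 untreated (edgeR adjusted p = 0.0553).

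The authors' deposited tables also hold a splicing log2 ratio and an adjusted score per gene. The authors' deposited table for 5 h gives a ratio other than 0 in 1.71% of rows and in 0 members. In the authors' deposited table for 24 h it is other than 0 in 2.99% of rows and in 2 of the 72 members. These were SF3A3, with -1.24 and a score of 0, and SF3B3, with -1.13 and a score of 1.39 in the authors' deposited table. Both are also among the 4 members with the smallest p for expression at 24 h, though neither passed there (edgeR adjusted p = 0.0963 and 0.136). The 2 measures come from the same libraries, so neither is independent of the other. How these columns were computed was not given in the sources used here.

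Other genes of the splicing pathway were counted in 5 lists drawn up by function. At 5 h without a block edgeR called 0 in each of the 5, and with it 9 of 63 further spliceosome components were higher and 0 lower, 10 of 49 further splicing regulators higher and 0 lower, and 3 of 11 kinases and cofactors higher. The blocked fit called 10.6% of all genes higher and 9.92% lower. Among those with the smallest p were DDX39B (0.30), an RNA helicase of the early spliceosome, LUC7L3 (0.32), SREK1 (0.28) and CLK4 (0.15), a kinase of SR proteins. In snRNP assembly 1 of 22 was higher (TGS1, which caps small nuclear RNA, 0.36) and 1 lower (GEMIN4, -0.25). Of 12 exon junction and decay genes 4 were higher.

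At 24 h edgeR called 1 of 63 further spliceosome components lower (PPIH, a cyclophilin of the tri-snRNP, -0.47, adjusted p = 0.0332), 1 of 52 regulators (MBNL3, -1.37, adjusted p = 0.00284) and 1 of 22 assembly genes (GEMIN5, the reader of small nuclear RNA in the SMN complex, -0.40, adjusted p = 0.0372). The kinase and the exon junction lists held 0 calls in edgeR. At an unadjusted p below 0.05 these 2 lists held 1 lower gene each. The components, regulators and assembly genes held 5 lower each, with 2 regulators higher. Over all genes edgeR called 4.94% lower and 1.8% higher, and 21.5% had an unadjusted p below 0.05.

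Between the times without irradiation edgeR called 30.5% of all genes lower and 32.6% higher. Of 63 spliceosome components 46 were lower and 3 higher, of 50 regulators 39 and 4, of 11 kinases and cofactors 9 and 2, of 22 assembly genes 12 and 2, and of 12 exon junction genes 6 and 4. WDR77, of the complex that methylates Sm proteins, fell by 2.22 and TRA2B, an SR-like activator, by 1.38. SRPK2, a kinase of SR proteins, rose by 1.51. With library totals alone 26, 20, 6, 9 and 5 genes of the lists were called lower and 10, 8, 2, 8 and 6 higher, in the same order, against 16.6% and 52.5% of all genes. No test compared the lists with the members.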

How the data were processed

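Total RNA libraries were made with a stranded, ribosomal-RNA-depleting kit, per the labels. The authors deposited 1 table per time, with reads already summed to whole-number, unnormalized counts for each gene, per the file headers; those entered all tests. The authors' deposited splicing columns, a log2 ratio and an adjusted score per gene, were copied as given. Exon lengths and scaffold coordinates are those deposited, per the file headers on assembly L_africana_Jul_2009. The aligner, the counting program and its use of strand were not given in the sources used here. Reads of overlapping genes can therefore not be told apart. 24 other per-sample columns were not used.

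The 2 tables were joined by gene ID. Counts were tested in edgeR 4.0.16 (R 4.3.3, limma 3.58.1) with TMM scaling, filterByExpr, quasi-likelihood F tests and p-values adjusted by Benjamini-Hochberg over all genes tested, at 0.05. Each comparison used its 6 libraries and the interaction all 12. DESeq2 1.42.0, other scalings, filters, sample sets, a replicate block and fits without each library were alternatives; library totals alone, and the block without 1 pair, were added after seeing the data. The tests were tried on simulated counts. CPM values use TMM factors over the 12 libraries, so folds of CPM can differ slightly from fitted ones.

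Members were named by p (up to 25 called per comparison, or the 8 smallest), by level per kb in their family, and from a list of well-known splicing factors; further names were chosen after their values were seen, and some genes are not reported here by name. Members and lists were chosen with earlier results of these data known. Pairing was checked by correlating deviations from group means over 9561 genes: the replicate numbers, which come from the labels, pair the libraries at 5 h (0.68, 0.70, 0.83), not at 24 h (-0.17, -0.61, 0.86) or between times (0.0038, -0.065, -0.15).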

Additional observations from a re-analysis of the deposited data

How the results depend on the processing

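Single members kept their direction and side of the threshold in 1321 of 1457 repeats. Of the rest, 63 moved past the threshold, 42 lost it and 31 turned in sign, all 31 in untreated 24 h against 5 h. With library totals alone the sign turned for HNRNPA2B1 (0.031), PRPF8 (0.012), SRSF7 (0.31), LSM14A (0.16), HNRNPDL (0.10), LSM3 (0.070), LSM8 (0.16), LSM4 (0.040), LSM10 (0.32), SNRPC (0.16), SNRPA (0.32) and SRSF4 (0.044). Of these only SNRPA passed the threshold there. The sign also turned, without a call, with a filter of 5 CPM for SRSF7 (0.0014), LSM10 (0.022) and SNRPA (0.015), with no filter for LSM6 (-0.057), PRPF31 (-0.014) and SF3B5 (-0.00215), and for LSM6 also with RLE factors (-0.039), DESeq2 (-0.040) and all 12 libraries (-0.027). Leaving out 1 library gave LSM6 -0.065 to 0.016, PRPF31 -0.064 to 0.11, SF3B5 -0.17 to 0.12 and SRSF12 -0.13 to 0.30. The cause was not tested. Library totals alone also gave 10 members higher and 35 lower between times, with a median of -0.24. At 5 h DESeq2 gave 1 higher member, and the replicate block 8 higher and 5 lower, or 4 to 8 and 3 to 6 without 1 pair. At 24 h the block gave 0 calls, DESeq2, all 12 libraries in 1 fit, and library totals alone gave 3 lower members each, and leaving out 1 library gave 0 to 2. Between times, where libraries share only a number, the block gave 54 lower and 3 higher members, and leaving out 1 library 53 to 57 lower. Members at low counts (SNRPN, LSM11, SRSF12) have the widest intervals.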
